A study of Mus musculus with 6 samples.

Results

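Cadherin and protocadherin genes were examined in RNA sequencing of mouse liver tumour cell lines. The members were all genes of the count table named Cdh with a number (apart from Cdh1 and Cdh2) and all genes whose name starts with Pcdh, which gave 91 of the 53465 genes: 21 cadherins, 12 non-clustered protocadherins and 58 clustered protocadherins (14 alpha, 22 beta and 22 gamma). One name, Pcdha11, stands on a pair of gene identifiers, and both had no counts. The 6 cell lines, which the paper calls independent, were grown from liver tumours of C57BL/6 mice. Tumours were induced in adult females by hydrodynamic tail vein injection of a transposon that expresses Myc from the EF1a promoter. Plasmids for Cas9 and a single guide RNA were injected with it. The guide was directed against Kdm6a, which encodes the H3K27 demethylase UTX, in the 3 Myc_Utx lines (2A, 2B and 2D) and against p53 in the 3 Myc_p53 lines (1, 2 and 3), so that both groups carried the Myc transposon and there was no line without an edited gene. The lines had been passaged until no other cell type was seen, and the labels do not give the animal or the guide construct behind each line, so lines that share either (2A, 2B and 2D share a number) could not be told from separate ones.

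Cadherins are transmembrane proteins whose extracellular repeats bind calcium and hold neighbouring cells together, usually by pairing with the same cadherin on the next cell. Classical cadherins of type I and type II bind β-catenin, plakoglobin and p120-catenin inside the cell and, through α-catenin, the actin cytoskeleton, whereas protocadherins have other cytoplasmic tails and do not bind β-catenin in this way. The clustered protocadherins are encoded by 3 neighbouring gene arrays in which each variable exon has its own promoter, and neurons use them in combinations as a surface label. Hepatocytes mainly carry E-cadherin and N-cadherin, the products of Cdh1 and Cdh2, and most of the other members are known from kidney, gut, muscle, mesenchyme, endothelium or brain.

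Sequencing gave 4656103 to 6937497 counted reads per line, and edgeR's quasi-likelihood F test was run on the 11510 genes that passed the filter on low counts. Fold changes are Myc_Utx over Myc_p53 on the log2 scale, levels are CPM, the counts scaled to a common library size after TMM normalization, and p is adjusted by the Benjamini-Hochberg procedure over all genes tested. The common dispersion of 0.112 corresponds to a coefficient of variation of 33.4% between lines. Kdm6a transcript was 199, 244 and 220 counts in Myc_Utx lines 2A, 2B and 2D and 440, 348 and 298 in Myc_p53 lines 1, 2 and 3, and the CPM of the groups overlapped (log2 fold change -0.39, SE 0.22, adjusted p = 0.243), so the transcript level did not separate the lines by this label, and an edited gene can still be transcribed. Trp53 was 1475, 1578 and 1239 counts in Myc_Utx lines and 205, 186 and 251 in Myc_p53 lines (log2 fold change 3.07, SE 0.11, adjusted p = 0.000488). Because the methods of the study give another guide for the lines that were sequenced, Kmt2c (Mll3) was read too, at 349, 411 and 389 counts in Myc_Utx lines and 939, 625 and 851 in Myc_p53 lines (log2 fold change -0.73, SE 0.15, adjusted p = 0.0289, with the call lost in 5 of 6 fits that left out 1 line), and the group names used here are those of the sample labels.

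Most members were barely transcribed. Of the 91 genes, 26 had no counts in any line, 26 had between 1 and 10 counts summed over all lines, and 39 had more than 10. Counts were absent for 8 of 21 cadherins, 3 of 12 non-clustered protocadherins and 15 of 58 clustered ones, where 12 of the 14 alpha genes, 3 of the 22 beta genes and 0 of the 22 gamma genes had none. Only 9 members passed the filter for the test, 4 cadherins, 3 non-clustered protocadherins and 2 gamma genes, so that the raw counts carry most of what follows. Among these 9, 1 was lower in Myc_Utx lines at an adjusted p under 0.05 and 0 were higher, where 7.69% of all genes tested were lower and 6.99% higher, and 3 members had an unadjusted p under 0.05, beside 35.0% of all genes tested (16.6% higher and 18.3% lower). DESeq2, which gave an adjusted p to 29 members, called 6 of them lower and 1 higher, beside 11.3% and 9.17% of all genes. CPM did not overlap between the groups for 4 of the 9, with Myc_Utx below for 3 of them and above for 1, against 20.9% and 21.1% of all genes tested.

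Summed levels of each family were led by a few genes. Cadherins summed to 55.0, 44.6 and 81.7 CPM in Myc_Utx lines 2A, 2B and 2D and to 602, 150 and 529 CPM in Myc_p53 lines 1, 2 and 3, without overlap (log2 ratio of the means -2.82). Most of this came from Cdh6 and Cdh16 in Myc_p53 line 1 (275 and 286 CPM) and line 3 (372 and 87.5 CPM). In line 2 these genes were low, and Cdh3 (62.5 CPM) and Cdh13 (46.9 CPM) led. Non-clustered protocadherins summed to 128, 248 and 172 CPM in Myc_Utx lines and 23.7, 41.5 and 76.4 CPM in Myc_p53 lines, again without overlap (log2 ratio 1.95), but Pcdh7 alone made up 102, 142 and 145 CPM in the Myc_Utx lines, and Pcdh1 and Pcdh9 each had most of their counts in Myc_p53 lines. The clustered genes summed to 103, 72.5 and 63.9 CPM against 22.9, 107 and 42.8 CPM, and the groups overlapped (log2 ratio 0.465, but 0.085 without Myc_p53 line 1 and 1.278 without line 2). Since RNA was taken from whole cultures, fewer cells that express a gene and less of its RNA in each cell cannot be told apart.

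**Figure D1:**
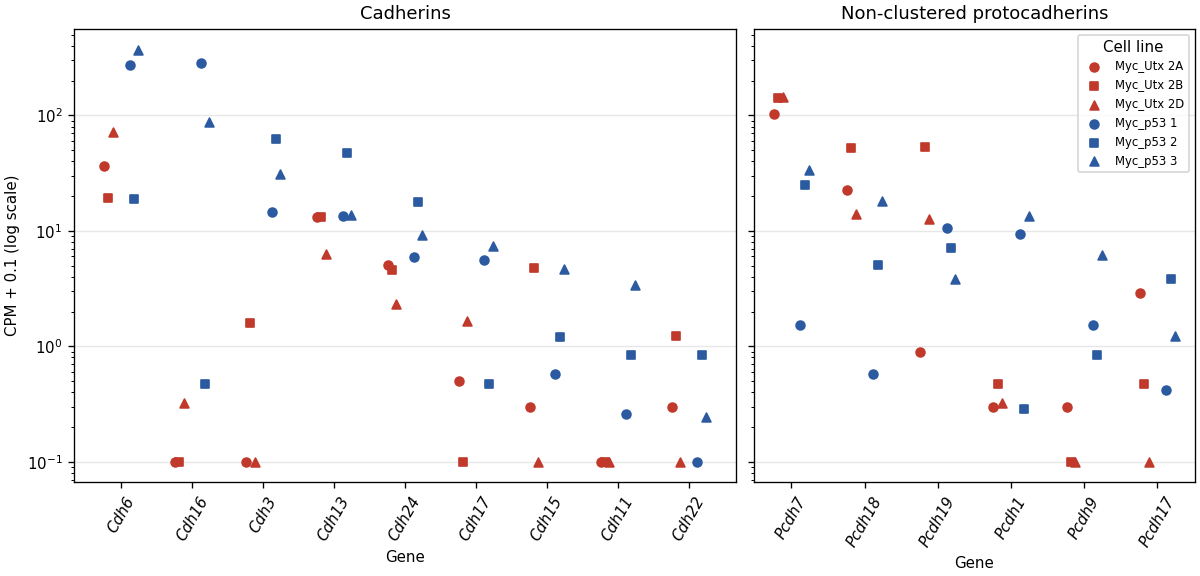
CPM plus 0.1 on a log axis for the 9 cadherins and 6 non-clustered protocadherins with more than 10 summed counts, 1 point per cell line (red, Myc_Utx; blue, Myc_p53; a gene without counts stands at 0.1). All 3 Myc_p53 lines stand above the Myc_Utx lines for Cdh3, and all 3 Myc_Utx lines stand above the Myc_p53 lines for Pcdh7.

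Cdh3 was the only member past the threshold. It encodes P-cadherin, a type I cadherin of basal epithelial cells and placenta, and lies on chromosome 8, 106510891 to 106557297 (GRCm38, plus strand). It had 0, 8 and 0 counts in Myc_Utx lines 2A, 2B and 2D and 91, 337 and 216 counts in Myc_p53 lines 1, 2 and 3. No Myc_Utx line reached a Myc_p53 line, and line 2B held all of the counts of its group. The level was 0.499 ± 0.865 CPM in Myc_Utx and 35.9 ± 24.4 CPM in Myc_p53 lines (SD, n = 3 each), a log2 fold change of -6.03 (SE 1.14, adjusted p = 0.0255). The direction held without any 1 line, with log2 fold changes from -10.66 to -5.37. The adjusted p did not pass without Myc_Utx line 2A (0.0791), 2B (0.0613) or 2D (0.0885) or without Myc_p53 line 3 (0.0703).

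Cdh1, the neighbouring E-cadherin gene of chromosome 8, had 0, 2 and 1 counts in Myc_Utx lines and 78, 19 and 296 in Myc_p53 lines (log2 fold change -6.44, SE 1.27, adjusted p = 0.0274, with the call lost in 4 of 6 fits that left out 1 line). Cdh2, the N-cadherin gene, had 402, 490 and 299 against 221, 626 and 2203 counts, with overlap (log2 fold change -0.96, SE 0.70, adjusted p = 0.367).

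Cdh6 was the cadherin with the most counts. It encodes K-cadherin, a type II cadherin of the kidney, on chromosome 15, 13028701 to 13173675 (minus strand). Its counts were 181, 102 and 321 in Myc_Utx lines and 1741, 101 and 2610 in Myc_p53 lines 1, 2 and 3, that is 42.2 ± 26.7 against 222 ± 183 CPM. Lines 1 and 3 stood far above every Myc_Utx line, but line 2, at 18.7 CPM, was below all of them, so the groups overlapped (log2 fold change -2.40, SE 1.01, adjusted p = 0.148). Without Myc_p53 line 2 the log2 fold change was -2.94 with an adjusted p of 0.0257. No other alternative fit passed for Cdh6 (adjusted p from 0.115 with DESeq2 to 0.326 without Myc_p53 line 3). Cdh24, another type II cadherin that binds catenins, lies on chromosome 14, 54631231 to 54641364 (minus strand). It was low in both groups, with 25, 24 and 10 counts in Myc_Utx lines and 37, 95 and 64 in Myc_p53 lines, and the groups did not overlap (3.90 ± 1.47 against 10.9 ± 6.07 CPM, log2 fold change -1.46, SE 0.52, adjusted p = 0.101). The other type II genes stood near the limit of detection. Cdh11, the cadherin of osteoblasts and other mesenchymal cells, had no counts in Myc_Utx lines and 1, 4 and 23 in Myc_p53 lines, which is at least 2.29-fold higher in Myc_p53 when a group at 0 is set to 3 counts per line. Cdh22 had 1, 6 and 0 against 0, 4 and 1 counts, with overlap.

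Cdh13 encodes T-cadherin, which has no cytoplasmic tail, is held in the membrane by a lipid anchor and binds adiponectin. The gene lies on chromosome 8, 118283733 to 119324921 (plus strand). It had 66, 70 and 28 counts in Myc_Utx lines and 85, 253 and 96 in Myc_p53 lines. The groups did not overlap on the CPM scale, by a narrow margin, since line 2A stood at 13.2 CPM and Myc_p53 line 1 at 13.4 CPM. The log2 fold change was -1.18 (SE 0.59, adjusted p = 0.205). Without Myc_p53 line 2, where it was highest, the log2 fold change was -0.32, since the lines left stood at 13.2, 13.1 and 6.24 against 13.4 and 13.7 CPM.

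The 2 cadherins with 7 extracellular repeats and a short tail that does not bind catenins, Cdh16 of kidney tubules and Cdh17 of gut and fetal liver, were like Cdh6 in that Myc_p53 lines 1 and 3 were high and line 2 was low. Cdh16 (chromosome 8, 104601911 to 104624396, minus strand) had 0, 0 and 1 counts in Myc_Utx lines and 1811, 2 and 614 counts in Myc_p53 lines 1, 2 and 3. Lines 1 and 3 held nearly all of its counts, at 286 and 87.5 CPM, and line 2 stood at 0.371 CPM beside the 0.223 CPM of Myc_Utx line 2D. It failed the filter, which asks for a minimum level in 3 lines, and the ratio of Myc_p53 over Myc_Utx was 2000.0, with an exact 95% counting interval from 359 to 79200. Cdh17 (chromosome 4, 11758147 to 11817895, plus strand) had 2, 0 and 7 counts in Myc_Utx lines and 35, 2 and 51 in Myc_p53 lines, with line 2, at 0.371 CPM, among the Myc_Utx lines. Cdh15, the M-cadherin of muscle, was spread over both groups, at 1, 25 and 0 against 3, 6 and 32 counts. Summed counts of 1 to 7 were found for Cdh5 (the VE-cadherin gene of endothelium), Cdh10, Cdh18 and Cdh23 (a gene of inner-ear hair cells), and Cdh4, Cdh7, Cdh8, Cdh9, Cdh12, Cdh19, Cdh20 and Cdh26 had none in any line.

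Non-clustered protocadherins act mostly in brain, where they take part in cell sorting and axon growth. Pcdh7, of the delta-1 group, lies on chromosome 5, 57717967 to 58133230 (plus strand), and its mean level in Myc_Utx lines was 12.2 CPM per kilobase of transcript. It had 512, 757 and 651 counts in Myc_Utx lines and 9, 133 and 236 counts in Myc_p53 lines. Every Myc_Utx line, at 102, 142 and 145 CPM, stood above every Myc_p53 line, at 1.42, 24.7 and 33.6 CPM. The means were 130.0 ± 23.9 and 19.9 ± 16.6 CPM, a log2 fold change of 2.70 (SE 0.88, adjusted p = 0.0834, and 0.0197 before adjustment). The adjusted p passed without Myc_p53 line 1 (log2 fold change 2.14, adjusted p = 0.0291) and with DESeq2 (2.71, adjusted p = 0.0482). It did not pass without any other line (0.115 to 0.187). Nor did it pass in the other edgeR settings with all lines that tested this gene (0.0512 to 0.0861).

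Pcdh18 and Pcdh19 belong to the delta-2 group, and Pcdh19 is known as an epilepsy gene. Pcdh18 (chromosome 3, 49743296 to 49757325, minus strand) had 112, 278 and 62 counts in Myc_Utx lines and 3, 27 and 126 in Myc_p53 lines, where Myc_p53 line 3, at 18.0 CPM, exceeded Myc_Utx line 2D at 13.8 CPM (log2 fold change 1.90, SE 1.06, adjusted p = 0.247, with a range of 1.22 to 3.44 when 1 line was left out, the highest without Myc_p53 line 3). Pcdh19 (chromosome X, 133582860 to 133688987, minus strand) had 4, 283 and 57 counts against 66, 38 and 26. Its group difference rested on line 2B, since the log2 fold change was 1.65 (SE 1.17, adjusted p = 0.354) with all lines and -0.05 without that line. The order of lines was therefore not shared by the 3 non-clustered protocadherins tested. Line 2B was highest for Pcdh18 and Pcdh19, whereas Pcdh7 stood nearly level in lines 2D and 2B (145 and 142 CPM). Myc_p53 line 1 was the lowest line for Pcdh7 and Pcdh18 but the highest Myc_p53 line for Pcdh19.

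The sequences upstream of the start sites of 5 tested members are shown, those with a RefSeq promoter window, because their log2 fold changes lay on either side of 0, with Pcdh7, Pcdh18 and Pcdh19 above and Cdh6 and Cdh24 below. Each begins 250 bases before the RefSeq start, is read 5′ to 3′ on the strand of the gene and stops before the first annotated base of the gene in the count table, and CG dinucleotides are in capitals. The positions on GRCm38.p6 are chr5:57717831-57717966 (plus strand, 136 bases) for Pcdh7, chr3:49757326-49757566 (minus strand, 241 bases) for Pcdh18, chrX:133688994-133689243 (minus strand, 250 bases) for Pcdh19, chr15:13173676-13173925 (minus strand, 250 bases) for Cdh6 and chr14:54641365-54641614 (minus strand, 250 bases) for Cdh24.
Pcdh7: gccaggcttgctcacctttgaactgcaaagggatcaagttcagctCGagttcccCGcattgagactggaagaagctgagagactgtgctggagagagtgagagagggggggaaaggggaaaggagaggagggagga
Pcdh18: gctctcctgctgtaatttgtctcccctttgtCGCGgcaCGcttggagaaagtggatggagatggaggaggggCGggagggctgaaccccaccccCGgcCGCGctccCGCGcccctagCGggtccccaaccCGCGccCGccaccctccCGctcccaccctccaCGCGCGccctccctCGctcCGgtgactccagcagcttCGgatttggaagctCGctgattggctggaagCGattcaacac
Pcdh19: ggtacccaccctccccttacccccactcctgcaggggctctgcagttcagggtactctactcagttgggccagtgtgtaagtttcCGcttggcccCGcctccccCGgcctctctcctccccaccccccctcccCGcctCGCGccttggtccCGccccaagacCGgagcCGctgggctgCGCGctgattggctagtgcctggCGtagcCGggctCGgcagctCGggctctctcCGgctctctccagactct
Cdh6: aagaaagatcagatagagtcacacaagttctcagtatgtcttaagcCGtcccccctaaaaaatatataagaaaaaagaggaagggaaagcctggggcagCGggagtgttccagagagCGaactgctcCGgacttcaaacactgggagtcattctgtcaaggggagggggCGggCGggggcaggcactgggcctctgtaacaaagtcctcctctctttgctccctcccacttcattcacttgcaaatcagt
Cdh24: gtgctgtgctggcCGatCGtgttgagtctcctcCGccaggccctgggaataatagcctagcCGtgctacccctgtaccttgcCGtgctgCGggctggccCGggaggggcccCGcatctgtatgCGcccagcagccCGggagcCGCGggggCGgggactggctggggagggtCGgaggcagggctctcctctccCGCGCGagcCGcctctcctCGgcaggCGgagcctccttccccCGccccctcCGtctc

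The 5 upstream sequences differed in their CG content, and its order did not follow the sign of the log2 fold change. None of the 5 genes was called in the main test, so their directions are not established and no relation can be read from this order. Pcdh7 held 2 CG dinucleotides in its shorter sequence of 136 bases, and Cdh6 held 6 in 250 bases. Pcdh19 held 16 in 250 bases, Pcdh18 held 22 in 241 and Cdh24 held 22 in 250. In the whole windows of 300 bases, which run 50 bases past the start, the numbers were 11, 8, 18, 23 and 30 for Pcdh7, Cdh6, Pcdh19, Pcdh18 and Cdh24, more than in 58.6%, 51.4%, 70.3%, 78.5% and 88.3% of all windows. Member windows on chromosome 18, where all clustered genes, Pcdh1 and Pcdh12 lie, were left out. Windows were used for 22 member genes (25 windows), with a median of 14 CG dinucleotides and 60.3% G and C bases. Over all 32851 windows these medians were 7 and 52.7%. The E-box CACGTG, which reads the same on both strands and is bound by Myc and other factors, was found in 1 of the 25 windows, that of Cdh15, against 7.15% of all windows. These are counts of letters, and no binding or methylation was measured in these files.

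Pcdh1 and Pcdh9, both of the delta-1 group, lay on the other side. Pcdh1, which is expressed in airway epithelium, had 1, 2 and 1 counts in Myc_Utx lines and 59, 1 and 94 counts in Myc_p53 lines 1, 2 and 3. As for Cdh6, Cdh16 and Cdh17, Myc_p53 lines 1 and 3 were high and line 2 was low, here below every Myc_Utx line on the CPM scale. Pcdh9 had 1, 0 and 0 counts in Myc_Utx lines and 9, 4 and 43 in Myc_p53 lines, without overlap, and the ratio of Myc_p53 over Myc_Utx was 46.3 with a counting interval from 7.97 to 1860. Pcdh17 was mixed, at 14, 2 and 0 against 2, 20 and 8 counts. Pcdh10, Pcdh11x and Pcdh15 had 1 to 4 counts in all, and Pcdh8, Pcdh12 and Pcdh20 had none.

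When the filter on low counts was dropped, so that all 24221 genes with counts were tested, 2.87% of genes were higher and 3.74% lower in Myc_Utx lines at an adjusted p under 0.05. In this fit Cdh16 (adjusted p = 0.022), Pcdh1 (0.0458), Pcdh9 (0.0434) and the gamma gene Pcdhgc4 (0.0325) were lower beside Cdh3 (0.00867). DESeq2 gave adjusted p values of 0.000314 for Cdh16, 0.00482 for Pcdh1, 0.018 for Pcdh9 and 0.00903 for Pcdhgc4, and also called Pcdhga12 lower (0.0282). Neither fit called Cdh11 (0.0935 and 0.0831) or Cdh17 (0.200 and 0.153). Cdh16 and Pcdh1 were called although 1 of the 3 Myc_p53 lines held 2 counts or fewer, so these calls rest on lines 1 and 3.

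**Figure D2:**
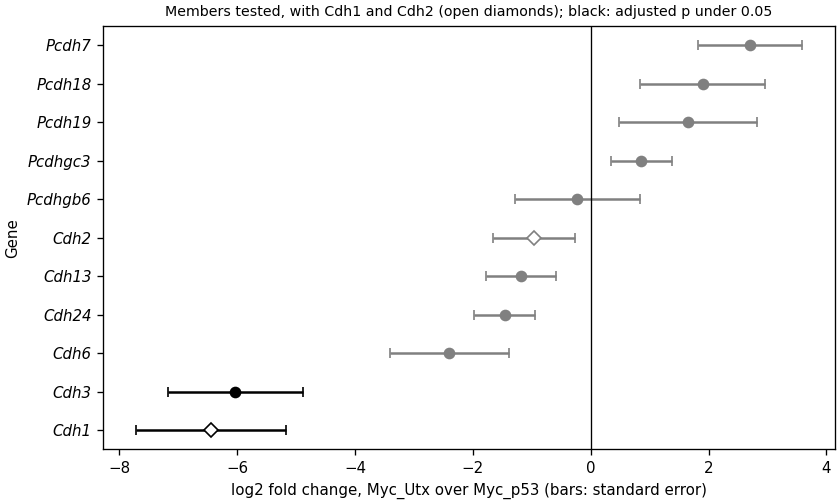
Log2 fold change of Myc_Utx over Myc_p53 with its standard error for the 9 members tested and, as open diamonds, Cdh1 and Cdh2; black marks an adjusted p under 0.05 in the edgeR test. The 4 cadherins lie below 0 and the 3 non-clustered protocadherins above it, from -6.03 for Cdh3 to 2.70 for Pcdh7.

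The clustered protocadherins lie side by side on chromosome 18. In the alpha and gamma arrays each variable exon is spliced to constant exons that all genes of the array share, whereas most beta genes stand alone. In the GENCODE M21 annotation, whose coordinates equal those of the table for these genes, a median of 45.3% of the exonic bases of a gamma gene and 53.6% of those of an alpha gene also belonged to other genes, beside 0.0% for beta genes. Pcdhga10 had 0 bases of its own. How the counting treated reads on such bases is not given in the sources used here. Pcdhga2, with 45.1% of its exonic bases shared, had 0 counts in each Myc_Utx line, beside 302, 293 and 221 for Pcdhgc3. Reads on shared bases were thus not counted for every gene that holds them. Counts of single alpha and gamma genes and sums over these arrays are uncertain, and reads of near-identical variable exons may add to this.

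Alpha genes were almost silent, with 5, 3 and 0 counts over the whole array in Myc_Utx lines and 1, 1 and 0 in Myc_p53 lines. Beta genes were the part of the clusters that appeared almost only in 2 of the 3 Myc_Utx lines. The 22 beta genes together had 85, 23 and 3 counts in Myc_Utx lines 2A, 2B and 2D and 0, 6 and 3 counts in Myc_p53 lines. At least 1 count was found in 15, 11 and 3 of the 22 genes in Myc_Utx lines and in 0, 5 and 2 in Myc_p53 lines. Line 2D, at 0.668 CPM, stood below Myc_p53 line 2 at 1.11 CPM, so the groups overlapped. The depth of Myc_p53 line 1 would still allow up to 3 counts for each gene seen at 0.

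The 5 beta genes above 10 counts lie next to each other or nearly so at the gamma end of the array. Pcdhb16 had 8, 3 and 0 counts in Myc_Utx lines and none in Myc_p53 lines (at least 1.48-fold higher in Myc_Utx). Pcdhb18, at 10, 3 and 0 counts, and Pcdhb19, at 9, 1 and 1, were likewise without counts in Myc_p53 lines (at least 1.75-fold and 1.51-fold). Each was led by line 2A. Pcdhb17 had 13, 7 and 0 against 0, 2 and 0 counts, a ratio of 12.1 with a counting interval from 2.94 to 107, and Pcdhb22 had 14, 2 and 1 against 0, 1 and 2 counts, a ratio of 6.86 with an interval from 1.98 to 36.5. The other 14 beta genes with counts had 1 to 10 each. The intervals cover counting error only and not the spread between lines, which is wide here.

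**Figure D3:**
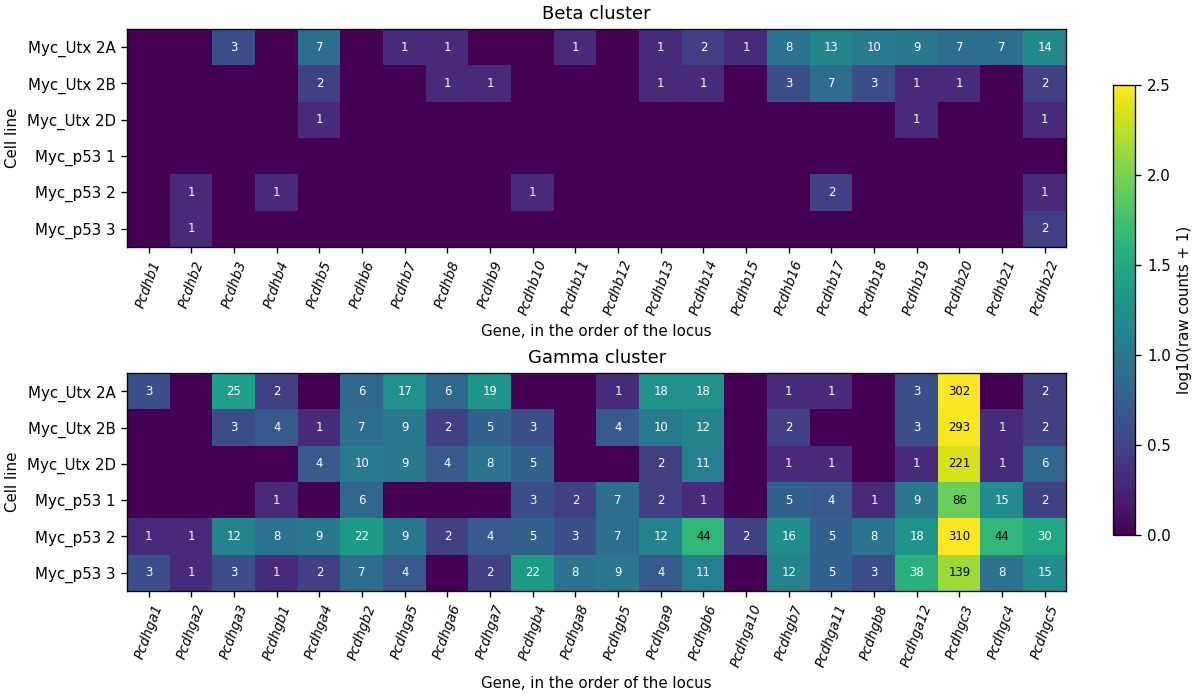
Raw counts of the beta and gamma protocadherin genes in each cell line, in the order of the locus, with colour on a log10(count + 1) scale and unlabelled cells for 0 counts. Beta counts gather in Myc_Utx line 2A, and Pcdhgc3 holds 86 to 310 counts in every line.

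Within the gamma array, Pcdhgc3 was the main transcript in every line. It is 1 of the 3 C-type gamma genes and, unlike most clustered genes, is known to be expressed outside the nervous system. It had 302, 293 and 221 counts in Myc_Utx lines and 86, 310 and 139 in Myc_p53 lines 1, 2 and 3. On the CPM scale the Myc_Utx lines stood close together, at 60.2, 54.9 and 49.2, and Myc_p53 line 2, at 57.5, stood among them, while lines 1 and 3 were at 13.6 and 19.8. The log2 fold change was 0.86 (SE 0.52, adjusted p = 0.281), and 1.71 with an adjusted p of 0.0168 without Myc_p53 line 2. No other alternative fit passed (adjusted p from 0.239 with DESeq2 to 0.512 without Myc_p53 line 3). Per kilobase of exon that it shares with no other gene, Pcdhgc3 averaged 23.4 CPM over all lines, and the next gamma gene, Pcdhgb6, averaged 1.18 CPM.

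The other C-type genes went the other way. Pcdhgc4, which supports the survival of neurons, had 0, 1 and 1 counts in Myc_Utx lines and 15, 44 and 8 in Myc_p53 lines, without overlap (ratio of Myc_p53 over Myc_Utx 27.7, counting interval 7.37 to 233). Pcdhgc5 had 2, 2 and 6 against 2, 30 and 15 counts, with overlap. All gamma genes together summed to 424, 361 and 284 counts in Myc_Utx lines and 144, 572 and 297 in Myc_p53 lines (84.6, 67.6 and 63.2 against 22.8, 106 and 42.3 CPM), which overlapped. Pcdhgc3 made up 71.2% of the gamma counts in line 2A (exact 95% interval 66.7 to 75.5), 81.2% in 2B (76.7 to 85.1) and 77.8% in 2D (72.5 to 82.5), beside 59.7% in Myc_p53 line 1 (51.2 to 67.8), 54.2% in line 2 (50.0 to 58.3) and 46.8% in line 3 (41.0 to 52.7). The share was thus higher in every Myc_Utx line than in any Myc_p53 line, also in Myc_p53 line 2, whose level of Pcdhgc3 was like that of the Myc_Utx lines.

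**Figure D4:**
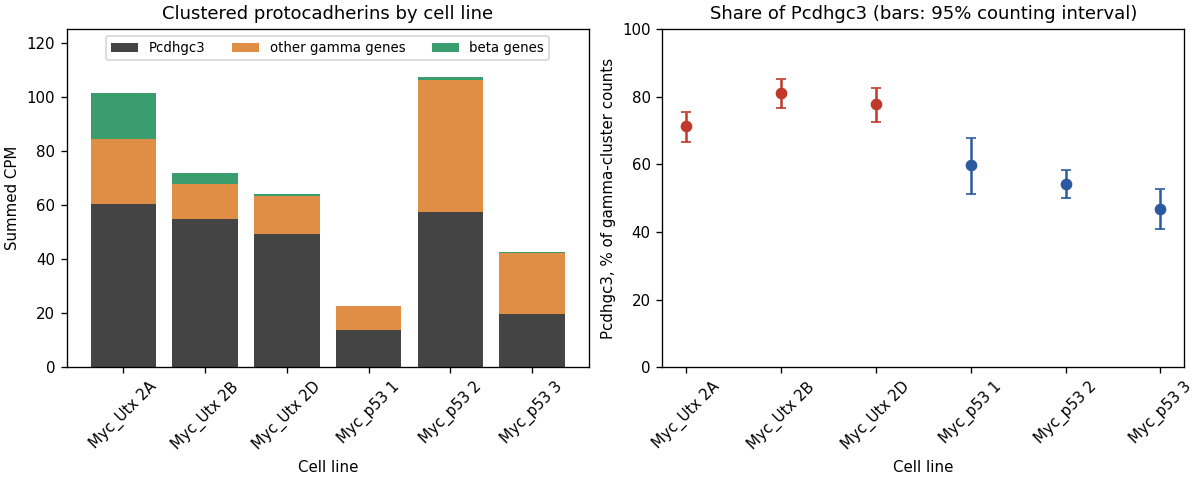
Left, summed CPM of Pcdhgc3, the other 21 gamma genes and the 22 beta genes in each cell line. Right, Pcdhgc3 as a percentage of all gamma counts of the line, with exact 95% counting intervals; the shares are 71.2% to 81.2% in Myc_Utx and 46.8% to 59.7% in Myc_p53 lines.

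The A-type and B-type gamma genes were low and split in both directions. They summed to 120, 65 and 56 counts in Myc_Utx lines and 41, 188 and 135 in Myc_p53 lines. Pcdhga5 (17, 9 and 9 against 0, 9 and 4 counts), Pcdhga6 (6, 2 and 4 against 0, 2 and 0) and Pcdhga7 (19, 5 and 8 against 0, 4 and 2) stood higher in every Myc_Utx line than in any Myc_p53 line on the CPM scale. For Pcdhga5 and Pcdhga6 the margin over Myc_p53 line 2 was small, at 1.69 against 1.67 CPM and 0.374 against 0.371 CPM. Another 6 genes stood the other way without overlap, namely Pcdhga12 (3, 3 and 1 against 9, 18 and 38 counts), Pcdhga11 (1, 0 and 1 against 4, 5 and 5), Pcdhgb5 (1, 4 and 0 against 7, 7 and 9), Pcdhgb7 (1, 2 and 1 against 5, 16 and 12), Pcdhga8 (none against 2, 3 and 8) and Pcdhgb8 (none against 1, 8 and 3). Among all genes above 10 summed counts, Myc_Utx lines stood above without overlap for 17.3% and below for 21.8%.

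Pcdhgb6, the only A-type or B-type gene tested, had 18, 12 and 11 counts in Myc_Utx lines and 1, 44 and 11 in Myc_p53 lines. Its log2 fold change of -0.23 (SE 1.06, adjusted p = 0.894) turned to 1.64 without Myc_p53 line 2. That line also had the highest count of Pcdhgb2 (6, 7 and 10 against 6, 22 and 7) and of Pcdhgb1 (2, 4 and 0 against 1, 8 and 1). Line 2A was highest for Pcdhga3 (25, 3 and 0 against 0, 12 and 3) and Pcdhga9 (18, 10 and 2 against 2, 12 and 4), and Myc_p53 line 3 for Pcdhgb4 (0, 3 and 5 against 3, 5 and 22), while Pcdhga4 was near 0 in most lines (0, 1 and 4 against 0, 9 and 2). In all of these the groups overlapped. Pcdhga1, Pcdhga2 and Pcdhga10 had 2 to 7 counts in all.

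Of 16 catenin and cadherin adaptor genes, 12 were tested, with a median log2 fold change of -0.88. Of these 0 were higher and 2 lower, beside 6.99% and 7.69% of all genes tested. At an unadjusted p under 0.05, 1 was higher and 7 lower, beside 16.6% and 18.3% of all genes tested. DESeq2 called 1 higher and 6 lower of 14, beside 9.17% and 11.3% of all genes. The 2 called by edgeR were Pkp4, an armadillo protein related to p120-catenin (574, 737 and 556 against 1429, 1142 and 1830 counts, log2 fold change -0.89, SE 0.13, adjusted p = 0.0167), and Afdn, the afadin gene that links nectins to actin (715, 749 and 631 against 1883, 1004 and 2136, -0.90, SE 0.20, adjusted p = 0.0353). For Ctnnb1 (β-catenin) the log2 fold change was 0.19 (SE 0.13, adjusted p = 0.326), for Ctnna1 (α-catenin) -0.54 (SE 0.15, 0.0577), for Ctnnd1 (p120-catenin) -0.63 (SE 0.22, 0.102) and for Jup (plakoglobin) -1.19 (SE 0.79, 0.320). None of Ctnnb1, Ctnna1, Ctnnd1 and Jup thus passed the test.

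Of 27 other genes of the cadherin superfamily, 7 were tested, and 2 were higher and 1 lower, whereas 2 were higher and 4 lower at an unadjusted p under 0.05 and, of 10 genes, with DESeq2. Over all genes tested, 6.99% were higher and 7.69% lower, or 16.6% and 18.3% at an unadjusted p under 0.05. DESeq2 called 9.17% and 11.3% of all genes. The same shares apply to the nectins and regulators below. Fat4, a giant cadherin of the planar polarity and Hippo pathways, had 515, 397 and 249 counts in Myc_Utx lines and 3, 62 and 8 in Myc_p53 lines (log2 fold change 4.19, SE 1.03, adjusted p = 0.0445), and Clstn1, the gene of a vesicle cargo receptor, was higher by 1.15 (SE 0.26, adjusted p = 0.0385). Dsc2, a desmosomal cadherin, had no counts in Myc_Utx lines and 68, 70 and 54 in Myc_p53 lines, which is at least 17.2-fold higher in Myc_p53 (adjusted p = 0.0141). Of 4 nectins, 3 were tested, and Nectin3 was higher (0.97, SE 0.21, adjusted p = 0.0318) and Nectin2 lower (-2.55, SE 0.30, adjusted p = 0.0141). Among 15 regulators of the protocadherin clusters, all tested, 1 was higher and 0 lower, with a median of -0.09 (2 higher and 2 lower at an unadjusted p under 0.05, and 1 and 0 with DESeq2). The gene called was Trim28, a corepressor of zinc finger proteins (0.49, SE 0.09, adjusted p = 0.0256), while Ctcf, which brings cluster promoters to their enhancers, stood at 0.23 (SE 0.09, adjusted p = 0.137) and Smchd1, which silences cluster genes, at -0.00 (SE 0.14, adjusted p = 0.992). The direction of these 8 called genes held in every alternative run, but leaving out 1 line lost the call of Dsc2 in 2 of 6 fits, of Nectin2 in 3, of Pkp4 in 4, and of Afdn, Fat4, Clstn1, Nectin3 and Trim28 in 5.

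The summed marker genes of macrophages and of neurons separated the groups, and those of the other cell types overlapped. The part of these markers in the results was not tested. Counts of called markers stand beside 6.99% of all genes tested higher and 7.69% lower by edgeR. At an unadjusted p under 0.05 the shares of all genes were 16.6% and 18.3%, and with DESeq2 9.17% and 11.3%. The 10 macrophage genes summed to 2.79 to 5.99 CPM in Myc_Utx and 39.9 to 108 CPM in Myc_p53 lines, with 5 of 6 tested genes lower (C1qa, C1qb, C1qc, Csf1r and Lyz2, calls that were lost in 5, 5, 4, 4 and 3 of the 6 fits that left out 1 line). The 8 neuron genes summed to 3.79 to 9.97 CPM against 20.7 to 108 CPM, mostly from Tubb3. This gene, the only one tested, stood at 7.98, 6.55 and 3.79 CPM in Myc_Utx and 20.5, 46.5 and 106 CPM in Myc_p53 lines. It was called lower, and the call was lost in 4 of those 6 fits. Stmn2 added 23.4 CPM in Myc_p53 line 2. Of the 8 genes, 5 had at most 3 counts in every line, and 3 of these had none. In both lists every Myc_p53 line stood above every Myc_Utx line. The 7 cholangiocyte or progenitor genes summed to 1480, 168 and 1560 CPM in Myc_p53 lines 1, 2 and 3 beside 554 to 1460 CPM in Myc_Utx lines, with 0 of 4 tested genes called by edgeR (1 higher and 1 lower at an unadjusted p under 0.05, and 3 lower with DESeq2). Among them Krt7 had 1, 0 and 2 counts in Myc_Utx lines and 100, 3 and 459 in Myc_p53 lines. The 10 stellate cell or fibroblast genes summed to 42.0, 3170 and 722 CPM in Myc_p53 lines 1, 2 and 3, mostly from Col3a1 in line 2 (2720 CPM), beside 1950 to 2690 CPM in Myc_Utx lines, with 0 of 6 tested genes called by edgeR (0 at an unadjusted p under 0.05, 1 lower with DESeq2). Endothelial genes summed to 19.9 to 42.3 against 36.8 to 117 CPM (0 of 2 tested genes called by edgeR, 1 higher and 1 lower at an unadjusted p under 0.05 and 1 lower with DESeq2, with 5 of 10 genes at 3 counts or fewer in every line). Skeletal muscle genes stayed at 6.13 CPM or less (none of the 6 passed the filter). The 10 hepatocyte genes were low in all lines, at 7.58 to 47.4 against 42.1 to 86.8 CPM, with Apob lower (the call was lost in 4 of 6 fits that left out 1 line, and DESeq2 called 3 of the genes lower), and Alb, the albumin gene that defines mature hepatocytes, had 4 to 26 counts.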

How the data were processed

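Per the labels, RNA was sequenced from 3 Myc_Utx and 3 Myc_p53 tumour cell lines. The authors deposited raw counts of reads per Ensembl gene, without normalization. The submitters' processing notes name Trimmomatic 0.36, STAR 2.5.3a, featureCounts 1.6.3, DESeq2 1.20.0 and the mouse build GRCm38, whereas the paper's methods name HTSeq and a human build and another guide for these lines. Coordinates and gene names of the table are mouse, and the labels were followed. Strand and multi-mapping settings are not given in the sources used here. Totals of 4656103 to 6937497 counts limit what low genes can show.

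The comparison was run with edgeR 4.0.16 under R 4.3.3 (filterByExpr with a minimum count of 10, TMM, quasi-likelihood F test, Benjamini-Hochberg adjustment over 11510 genes). The standard error of a log2 fold change was derived as its absolute value over the root of its F statistic. Where a group was at 0, its fold was computed against a floor of 3 counts per line. Where a group held 1 to 3 counts, the ratio is given with an exact 95% interval, which covers counting error only. Alternatives were no filter, at least 10 counts in every line, DESeq2 size factors, total counts only, transcript-length offsets (MASS 7.3.60.0.1, robust fits on splines of 5 degrees of freedom), the DESeq2 1.42.0 test and leaving out each line. On simulated data of the same design (11381 genes tested, 197 changed by 2 on the log2 scale) 91.4% of changed genes were recovered and 1.64% of calls were false. The simulation gave every gene the same common dispersion. It does not show recovery or false calls for genes with a wider spread between lines. Promoter windows came from RefSeq (GRCm38.p6).

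Members and gene lists were chosen with earlier results of these data known. Every member above 10 summed counts is named with its counts, and from each list the called genes (up to 4), Ctnnb1, Ctnna1, Ctnnd1, Jup, Ctcf and Smchd1. The genes named from the marker lists and Kmt2c were chosen after their values were seen. The paper calls the lines independent, and the labels do not give the animal behind each. So p measures the spread between lines, and whether that is the spread between animals is not known.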

Additional observations from a re-analysis of the deposited data

How the results depend on the processing

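Of 103 values of the 9 tested members under alternative settings, 93 kept their direction and their side of the threshold, 4 no longer passed, 4 newly passed and 2 reversed. The reversals were Pcdhgb6 without Myc_p53 line 2 (1.64, in a range of -0.80 to 1.64 over the lines left out) and Pcdh19 without Myc_Utx line 2B (-0.05, in a range of -0.05 to 2.24). Over all genes, 1270 were higher and 1565 lower with DESeq2, and 589 lower with transcript-length offsets, against 805 and 885. Leaving out each line gave 3 to 836 genes higher and 1 to 1118 lower, with the fewest without Myc_Utx line 2A. Cadherins called lower numbered 1 (Cdh3), 2 without the filter and with DESeq2 (both Cdh3 and Cdh16), and 0 with at least 10 counts in every line, a filter that Cdh3 cannot pass. They numbered 0 to 3 when a line was left out. Non-clustered protocadherins called lower numbered 2 without the filter and with DESeq2, and 0 to 1 when a line was left out (Pcdh1, without Myc_p53 line 2). Those called higher numbered 1 with DESeq2 (Pcdh7), and 0 to 1 when a line was left out. Clustered genes called lower numbered 1 without the filter, 2 with DESeq2 and 0 to 1 when a line was left out (Pcdhga12, without Myc_p53 line 1). Those called higher numbered 0 to 1 (Pcdhgc3, without Myc_p53 line 2). Apart from the settings that test fewer or more genes or fewer lines, the cause was not tested. Scaling by total counts shifted the median of all genes to -0.0763, and called 601 genes higher and 1009 lower, against 691 and 589 with transcript-length offsets. No paired analysis was possible because the replicate numbers of Myc_Utx and Myc_p53 lines do not match.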
